A study of Homo sapiens with 4 samples.

Results

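The genes described here are a list of 42 genes of homologous recombination and of the Fanconi anemia pathway, chosen by gene symbol from what the encoded proteins do, by a rule that uses no measured value. The list was nevertheless chosen with earlier results of these data known, so that no test was run over it as a set. Of the 42 genes, 40 had a row in the table of 12912 genes and all 40 passed the filter on low counts, while DMC1, the meiotic recombinase, and TOP3A, a topoisomerase of the junction dissolution complex, were not analysed here for expression and enter the promoter description alone. RNA sequencing compared 786-O-Ctrl with 786-O-VHL in 2 libraries each, to learn which transcripts change when VHL, the substrate recognition subunit of an E3 ubiquitin ligase, is put back into cells that lack it. 786-O is a human clear cell renal cell carcinoma line without functional VHL. The 786-O-Ctrl cells kept this VHL-null genotype, and the 786-O-VHL cells carried HA-tagged human VHL from a retroviral vector. Both sublines also carried the triple reporter, a fusion of thymidine kinase, GFP and luciferase, and both were grown in RPMI1640 medium with serum. Each group was 1 subline, and the labels did not say that its libraries came from separate cultures, so that the p-values measure the spread between these libraries, which may be technical.

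Homologous recombination repairs double-strand breaks and broken replication forks by copying the sister chromatid. Break ends are found and cut back to single strands, BRCA1, PALB2 and BRCA2 help to prepare these strands for pairing with the sister, and the joined molecules are later dissolved or cut apart. The Fanconi anemia pathway removes crosslinks between the DNA strands: its core complex attaches ubiquitin to FANCD2 and FANCI, and the lesion is then passed on to nucleases and to homologous recombination, a route needed mainly while DNA is being copied.

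The libraries held between 2807779 and 22141263 counts, and the smallest was 786-O-VHL replicate 1, the deepest library being 7.89 times larger. VHL itself was read at 42.9 and 43.9 CPM in 786-O-Ctrl (the library with more counts first) and at 178 and 163 CPM in 786-O-VHL replicates 1 and 2, a change of 1.96 ± 0.0706 (SE) on the log2 scale. CPM are counts per 1000000 counts of the library, after scaling with TMM factors, and values below keep that order of libraries, the 786-O-Ctrl library with more counts being the deeper and the other the shallower. The renal marker PAX8 was at 277 and 272 CPM in 786-O-Ctrl and at 166 and 137 CPM in 786-O-VHL. Such markers differed in direction, with VIM at 1670 and 1700 against 751 and 709 CPM and NNMT at 202 and 204 against 297 and 289 CPM. Of 11 renal epithelial and carcinoma line markers 10 were in the table, with LRP2 missing and CUBN at only 0.93 to 1.7 CPM. Of 4 leukocyte markers 1 was in the table, at up to 1.02 CPM. The 2 of 4 endothelial markers in the table summed to at most 0.76 CPM, and 3 of 5 fibroblast and smooth muscle markers to 17.7 to 21.9 CPM. All 4 libraries entered each test, and a gene was called where the adjusted p of edgeR's quasi-likelihood test was under 0.05.

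Most genes of homologous recombination and the Fanconi anemia pathway were lower in 786-O-VHL. Of the 40 genes, 26 fell, 2 rose and 12 did not pass the test, beside 31.9% of all 12335 genes tested that fell and 32.6% that rose. Among the 26, 14 were lower by more than 2-fold, beside 7.52% of all genes, and none of the 40 was higher by more than 2-fold, beside 10% of all genes. Both 786-O-VHL libraries lay below both 786-O-Ctrl libraries in 29 of the 40 genes and above them in 5, against 39.2% and 40.8% of all genes, and the 2 groups overlapped in the other 6. The median log2 fold change of the 40 genes was −0.76, between −2.11 for FANCB and 0.57 for RAD52, beside a median of 0.02 over all genes tested. Summed over the 40 genes, the level was 1357 and 1358 CPM in 786-O-Ctrl and 866.6 and 892.3 CPM in 786-O-VHL. In such bulk libraries fewer cells of a kind, for example fewer cells in S phase, and less RNA per cell cannot be told apart. The plot of the level of each gene in the 4 libraries shows that the falls were spread over every step of the pathway, while partners within a step often differed.

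**Figure D1:**
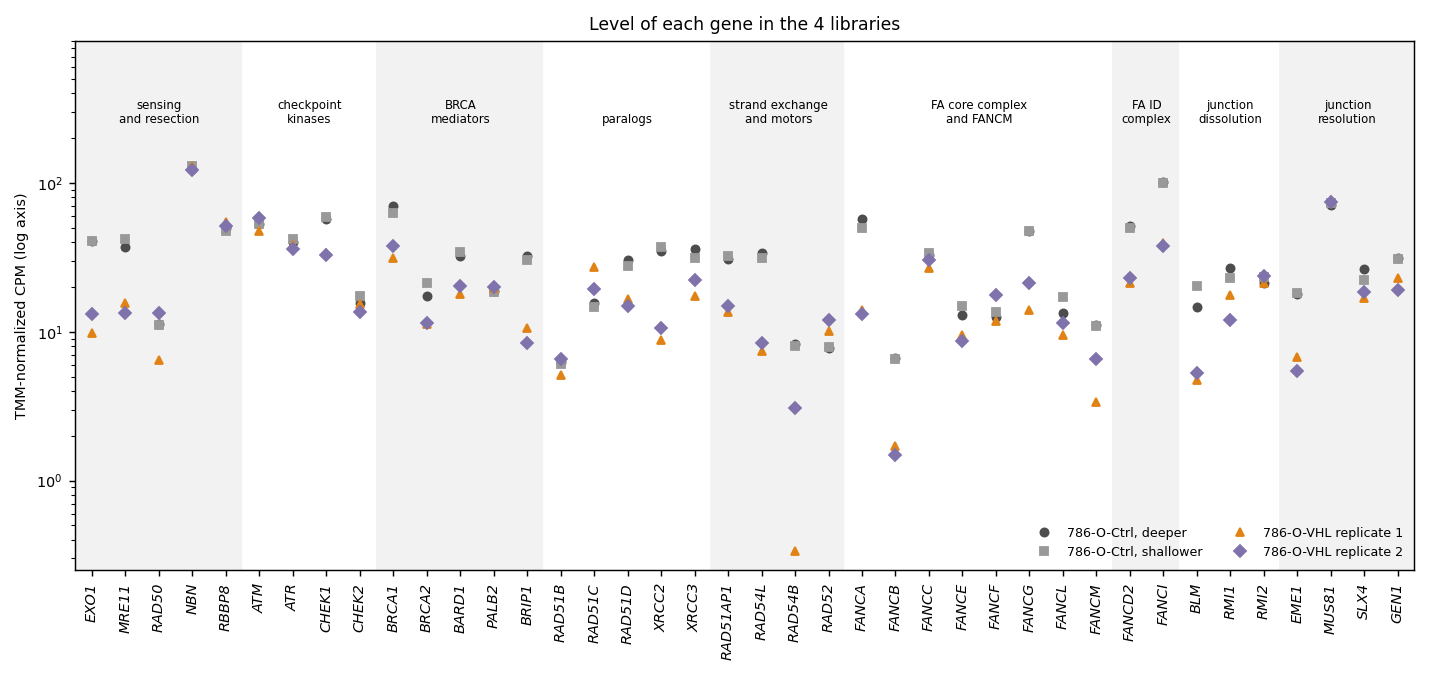
TMM-normalized CPM (log axis) of the 40 genes in the 4 libraries, grouped by role, with 1 point per library. The 2 libraries of a group usually lie close together. In FANCA, RAD54L and XRCC2 both 786-O-VHL points lie far below both 786-O-Ctrl points, in RAD52 and RAD51C they lie above, and the lowest point is RAD54B in 786-O-VHL replicate 1, which rests on 1 count.

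Promoters were read for the letters of cell cycle and hypoxia motifs, as a planned description. The set of RefSeq promoters (GRCh38.p14) used here held a full-length entry for 38 of the 42 genes, and where a gene had several the one listed first was used. FANCI, NBN, RMI2 and RAD54B had none in this set and were not searched, although FANCI and RAD54B fell by more than 2-fold. E2F motifs (TTTCCCGC, TTTGGCGC, TTTCGCGC or TTTGCCGC, on either strand) stood in the 250 bases before the start in 2 of the 38 promoters (5.26%), beside 2.79% of all 27305 promoters and 4.38% of the 9755 promoters of genes tested. The CHR motif (TTTGAA or TTCGAA) stood in 3 (7.89%, beside 14.6% of all promoters and 9.46% of those of genes tested), CCAAT in 15 (39.5%, beside 33% and 34.8%) and the core of the hypoxia response element (ACGTG or GCGTG) in 25 (65.8%, beside 43.1% of all promoters and 57.2% of those of genes tested). Within 150 bases before the start the hypoxia core stood in 17 (44.7%, beside 32.3% of all promoters and 43.4% of those of genes tested). In the 250 bases, E2F motifs stood in 4.17% of the genes that fell and in 10% of those that did not pass the test. The CHR motif stood in 4.17% against 20%, CCAAT in 41.7% against 50% and the hypoxia core in 62.5% against 60%. With 50 bases after the start added, a window chosen after the data were seen, the E2F motifs stood in 7 of 38 promoters (18.4%, beside 3.33% of all promoters and 5.26% of those of genes tested), among them 5 of 24 genes that fell, 4 of 12 that fell by more than 2-fold and 1 of 10 that did not pass the test, the seventh being DMC1. None of the 9 E2F matches shared bases with a match to another of these motifs. A match is a description of letters and not evidence of binding.

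Of the 24 genes that fell and had a promoter entry, FANCA alone held a whole E2F motif in the 250 bases before its start. Those bases are shown for that reason, at chr16:89816648-89816897 of GRCh38.p14 on the minus strand, 5′ to 3′. The motif is in capitals as read on the gene's strand. The match begins 172 bases before the start.
FANCA: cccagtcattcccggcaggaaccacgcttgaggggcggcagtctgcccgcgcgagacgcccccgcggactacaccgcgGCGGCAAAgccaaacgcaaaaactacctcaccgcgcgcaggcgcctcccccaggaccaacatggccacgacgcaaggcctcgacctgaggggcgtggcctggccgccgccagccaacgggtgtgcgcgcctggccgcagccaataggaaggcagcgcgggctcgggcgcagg

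The 4 other genes that fell and held a match had it at or just after the start. Each is shown as 30 bases around the match, on the gene's strand with the motif in capitals, beside both matches of FANCC, which did not pass the test and was added after its values were seen.
EXO1 (chr1:241848197-241848226, plus strand): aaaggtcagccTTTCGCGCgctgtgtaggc
GEN1 (chr2:17753859-17753888, plus strand): cagttgcggggTTTCGCGCcgccggagtct
FANCD2 (chr3:10026424-10026453, plus strand): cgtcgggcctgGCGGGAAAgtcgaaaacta
XRCC2 (chr7:152676102-152676131, minus strand): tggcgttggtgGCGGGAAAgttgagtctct
FANCC (chr9:95317863-95317892, minus strand): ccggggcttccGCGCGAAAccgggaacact
FANCC (chr9:95317737-95317766, minus strand): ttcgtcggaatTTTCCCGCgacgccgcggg

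Break sensing and end resection split into 2 genes that fell and 3 that did not pass the test. EXO1, a 5′ to 3′ exonuclease that extends resection and whose E2F letters are printed above, was read at 40.4 and 40.5 CPM in 786-O-Ctrl and at 9.84 and 13.2 CPM in 786-O-VHL, on the log2 scale a change of −1.68 ± 0.122 (SE, adjusted p = 1.18e-12). MRE11, the nuclease of the MRE11-RAD50-NBN complex, was at 37.1 and 41.8 CPM in 786-O-Ctrl and at 15.6 and 13.3 CPM in 786-O-VHL, −1.51 ± 0.122 (adjusted p = 1.2e-11). Its 2 partners gave no such call. NBN, the adaptor of the complex and the most highly counted gene of this step, was at 124 and 129 CPM in 786-O-Ctrl and at 129.6 and 122 CPM in 786-O-VHL, −0.02 with a 95% interval from −0.16 to 0.11. RAD50, the ATPase that tethers the ends, gave 0.08 (adjusted p = 0.73), but its 786-O-VHL libraries disagreed, at 6.44 and 13.3 CPM, beside 11.3 and 11.1 CPM in 786-O-Ctrl. Without 786-O-VHL replicate 2 RAD50 was lower at −0.80 (adjusted p = 0.0421). RBBP8, which encodes the resection factor CtIP, gave 0.10.

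Of the 4 checkpoint kinases 1 fell. CHEK1, the effector kinase of the replication checkpoint, was at 57.1 and 59.1 CPM in 786-O-Ctrl and at 33.9 and 32.8 CPM in 786-O-VHL, −0.81 ± 0.0871 (adjusted p = 3.69e-09). The kinases acting before it did not pass the test. ATR, which responds to single-stranded DNA, gave −0.16 with an interval from −0.36 to 0.03, and ATM, which responds to breaks, was at 52.8 and 52.5 CPM against 47.5 and 58.5 CPM, 0.08 with an interval from −0.09 to 0.25. CHEK2, the effector of ATM, gave −0.25 with an interval from −0.54 to 0.04.

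The BRCA mediators, which act on resected ends, gave 4 falls among 5 genes. BRIP1, a helicase that binds BRCA1 and is also the Fanconi anemia gene FANCJ, was at 32.2 and 30.3 CPM in 786-O-Ctrl and at 10.5 and 8.37 CPM in 786-O-VHL, −1.83 ± 0.138 (adjusted p = 2.91e-12). BRCA1, the most highly counted of the 5, was at 69.6 and 62.9 CPM in 786-O-Ctrl and at 31.2 and 37.5 CPM in 786-O-VHL, −0.88 ± 0.0892 (adjusted p = 1.22e-09). Both genes had clear gaps between the groups, and the fall was the larger in BRIP1, a difference that was not tested. BARD1, the ring finger partner of BRCA1, fell by 0.76 on the log2 scale (adjusted p = 1.24e-06). BRCA2, a mediator of strand pairing, fell by 0.75 (adjusted p = 7.4e-05). PALB2, the bridge between BRCA1 and BRCA2, did not pass the test, at 0.10 with an interval from −0.16 to 0.36.

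Among the 5 paralog genes RAD51B, RAD51C, RAD51D, XRCC2 and XRCC3, whose products form complexes that act in strand pairing, 3 fell and 1 rose. XRCC2 was at 34.8 and 36.8 CPM in 786-O-Ctrl and at 8.82 and 10.6 CPM in 786-O-VHL, −1.80 ± 0.129 (adjusted p = 9.33e-13). RAD51D fell by 0.93 (adjusted p = 2.18e-07). XRCC3 was at 35.8 and 31.4 CPM against 17.3 and 22.1 CPM and fell by 0.68 (adjusted p = 1.1e-05). RAD51C (ENSG00000108384.15, chr17:56769934-56812972 of GRCh37, plus strand), a subunit of both paralog complexes, went the other way. It was at 15.6 and 14.6 CPM in 786-O-Ctrl and at 27.1 and 19.5 CPM in 786-O-VHL, 0.49 ± 0.141 (adjusted p = 0.00318). The 2 groups did not overlap, but the shallow 786-O-VHL replicate 1 was the higher of its group, and the value was 0.84 without 786-O-VHL replicate 2 and 0.36 without replicate 1. RAD51B, which was at 5.09 to 6.59 CPM in the 4 libraries, gave 0.03 with an interval from −0.41 to 0.47.

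Of the genes of strand exchange and its motor proteins, 3 fell by more than 2-fold and 1 rose. RAD54L (ENSG00000085999.13, chr1:46712133-46744152 of GRCh37, plus strand), a DNA translocase that acts during strand invasion, was at 33.9 and 31 CPM in 786-O-Ctrl and at 7.46 and 8.37 CPM in 786-O-VHL, −1.99 ± 0.138 (adjusted p = 4.82e-13). RAD51AP1, a protein that aids strand pairing, was at 30.7 and 32.2 CPM against 13.6 and 14.9 CPM, −1.10 ± 0.121 (adjusted p = 6.36e-09). RAD54B, a second translocase, was read with 173 and 121 counts in 786-O-Ctrl and with 1 and 52 counts in 786-O-VHL, −1.64 ± 0.282 (adjusted p = 1.08e-05). Its size rests on which 786-O-VHL library is read, being −1.40 without replicate 1 and −4.55 without replicate 2. RAD52 (ENSG00000002016.17, chr12:1020902-1099219 of GRCh37, minus strand), which anneals single strands, rose from 7.79 and 7.91 CPM in 786-O-Ctrl to 10.2 and 12.1 CPM in 786-O-VHL, 0.57 ± 0.175 (adjusted p = 0.00584), the highest log2 fold change among the 40 genes. Without 786-O-VHL replicate 2 the RAD52 value was 0.37 and missed the threshold (adjusted p = 0.33), as it did without the deeper 786-O-Ctrl library, at 0.54 (adjusted p = 0.0698).

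The Fanconi anemia core complex, counted with its anchor FANCM, gave 6 falls among 8 genes (4 without 786-O-VHL replicate 2), and the 2 lowest log2 fold changes of all 40 genes were here. FANCB (ENSG00000181544.15), the X-linked core subunit at chrX:14708510-14891377 of GRCh37 on the minus strand, was read with 141 and 98 counts in 786-O-Ctrl and with 5 and 25 counts in 786-O-VHL, or 6.69 and 6.51 against 1.7 and 1.48 CPM. This was a log2 fold change of −2.11 ± 0.294 (adjusted p = 4.19e-07), 4.33-fold lower. FANCA (ENSG00000187741.15), a scaffold subunit at chr16:89793091-89883385 of GRCh37 on the minus strand whose promoter is printed above, was at 57.1 and 49.6 CPM in 786-O-Ctrl and at 13.9 and 13.1 CPM in 786-O-VHL, −2.01 ± 0.116 (adjusted p = 8.2e-15) or 4.04-fold lower. These 2 genes were the members past 4-fold at an adjusted p under 0.01, beside 1.54% of all genes. Membership of this pair turned on small differences, since FANCA stood at −1.90 without the deeper 786-O-Ctrl library and FANCB at −1.96 without 786-O-VHL replicate 2, while RAD54L at −2.13, EXO1 at −2.04, XRCC2 at −2.02 and RAD54B passed 4-fold without the latter. FANCG, which binds FANCA, was at 47.5 and 47.1 CPM against 13.9 and 21.4 CPM, −1.26 ± 0.114 (adjusted p = 1.4e-10).

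The remaining core genes changed less or not at all by the test. FANCM, a translocase that recruits the core complex to DNA, fell by 0.89 (adjusted p = 0.000327), and its value was −1.71 without 786-O-VHL replicate 2. FANCE, which links the complex to FANCD2, fell by 0.65 (adjusted p = 0.00131), and this call was lost without 786-O-VHL replicate 2, at −0.55 (adjusted p = 0.114). FANCL, the subunit with ubiquitin ligase activity, fell by 0.46 (adjusted p = 0.0161). The FANCL call was lost without the shallower 786-O-Ctrl library, at −0.30 (adjusted p = 0.271), and without 786-O-VHL replicate 2, at −0.67 (adjusted p = 0.0632). FANCC, a partner of FANCE and FANCF, was at 33 and 33.8 CPM against 26.8 and 30.3 CPM, −0.18 with an interval from −0.39 to 0.03. FANCF, an adaptor within the complex, gave 0.32 (adjusted p = 0.0663). Its 786-O-VHL libraries stood at 11.9 and 17.6 CPM on either side of the 12.6 and 13.6 CPM of 786-O-Ctrl, and the value was 0.43 (adjusted p = 0.007) without 786-O-VHL replicate 1 and −0.14 without replicate 2.

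Both subunits of the ID complex, the substrate of the core complex, fell by more than 2-fold. FANCI was at 101 and 99.8 CPM in 786-O-Ctrl and at 39.3 and 37.5 CPM in 786-O-VHL, −1.40 ± 0.0775 (adjusted p = 3.47e-15). FANCD2 was at 51.2 and 49.8 CPM in 786-O-Ctrl and at 21.4 and 22.8 CPM in 786-O-VHL, −1.17 ± 0.0984 (adjusted p = 3.05e-11). In both genes the gap between the groups was many times the gap within them.

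Late steps were uneven. In the complex that dissolves double Holliday junctions, BLM, its helicase, was at 14.7 and 20.1 CPM in 786-O-Ctrl and at 4.75 and 5.28 CPM in 786-O-VHL, −1.73 ± 0.195 (adjusted p = 1.04e-08). RMI1, a scaffold of that complex, was at 26.9 and 23.1 CPM in 786-O-Ctrl and at 17.6 and 11.9 CPM in 786-O-VHL and fell by 0.94 (adjusted p = 2.24e-06), or by 0.52 without 786-O-VHL replicate 2. Its partner RMI2 stood at 21.1 and 23.4 CPM in 786-O-Ctrl and at 21.4 and 23.5 CPM in 786-O-VHL, on the log2 scale 0.06 with an interval from −0.19 to 0.30. Among the nucleases that cut junctions, EME1, the regulatory partner of MUS81, was at 18 and 18.2 CPM in 786-O-Ctrl and at 6.78 and 5.46 CPM in 786-O-VHL, −1.67 ± 0.171 (adjusted p = 1.61e-09). MUS81, the catalytic subunit, was at 70.9 and 73.4 CPM against 76.6 and 74.6 CPM, 0.06 with an interval from −0.09 to 0.21. GEN1, a Holliday junction resolvase, fell by 0.65 (adjusted p = 2.04e-05). SLX4, a scaffold that binds MUS81-EME1 and other nucleases, fell by 0.43 (adjusted p = 0.00428), a call lost without the deeper 786-O-Ctrl library, at −0.30 (adjusted p = 0.178).

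**Figure D2:**
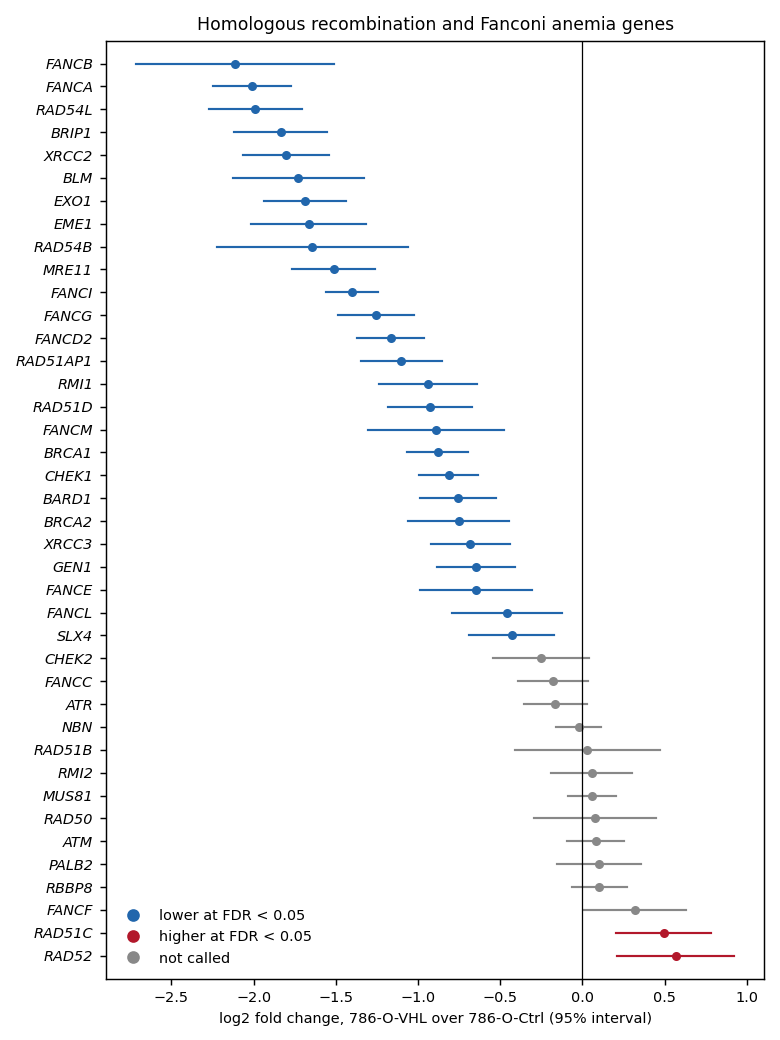
Log2 fold change of each of the 40 genes, 786-O-VHL over 786-O-Ctrl, as points with 95% intervals from edgeR, sorted from FANCB at −2.11 to RAD52 at 0.57 and coloured by the call at an adjusted p under 0.05. The 26 genes called lower form the upper block, and the 12 genes not called have intervals that lie between −0.54 and 0.63.

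Levels per length were compared between partners within a library, as ratios of RPKM, that is CPM divided by the length in kilobases of the union of annotated exons, which cancel the scaling of a library. EME1 stood at 0.421 and 0.41 of the RPKM of MUS81 in 786-O-Ctrl and at 0.146 and 0.121 in 786-O-VHL. BRCA2 stood at 0.481 and 0.599 of PALB2 in 786-O-Ctrl and at 0.293 and 0.297 in 786-O-VHL, and CHEK1 at 6.93 and 6.88 times ATR against 4.34 and 4.43 times. In these 3 pairs the groups did not overlap, the first partner being relatively lower in both 786-O-VHL libraries. Each sets a gene called lower over a gene not called, so that the ratio restates those calls and adds no separate support. The pairs were not among the planned results. In 2 pairs the groups did not overlap in the other direction. FANCD2 over FANCI, the subunits of 1 complex, moved by a small amount, from 0.767 and 0.751 to 0.818 and 0.916. RMI2 over RMI1, a gene not called over a gene called lower, was 0.743 and 0.958 in 786-O-Ctrl against 1.15 and 1.87 in 786-O-VHL. BRCA1 over BARD1 overlapped, at 1.15 and 0.975 against 0.928 and 0.99. The share of other gene pairs without overlap was not computed, and 39.2% of single genes lay lower and 40.8% higher without overlap. For NBN over RAD50 the 786-O-VHL ratios of 10.9 and 4.99 lay on both sides of the 6 and 6.31 of 786-O-Ctrl, and CHEK2 over ATM overlapped as well, at 2.59 and 2.9 against 2.8 and 2.01. With 2 libraries a group an exact permutation test of a ratio cannot give a two-sided p under 0.333, so that none was run.

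**Figure D3:**
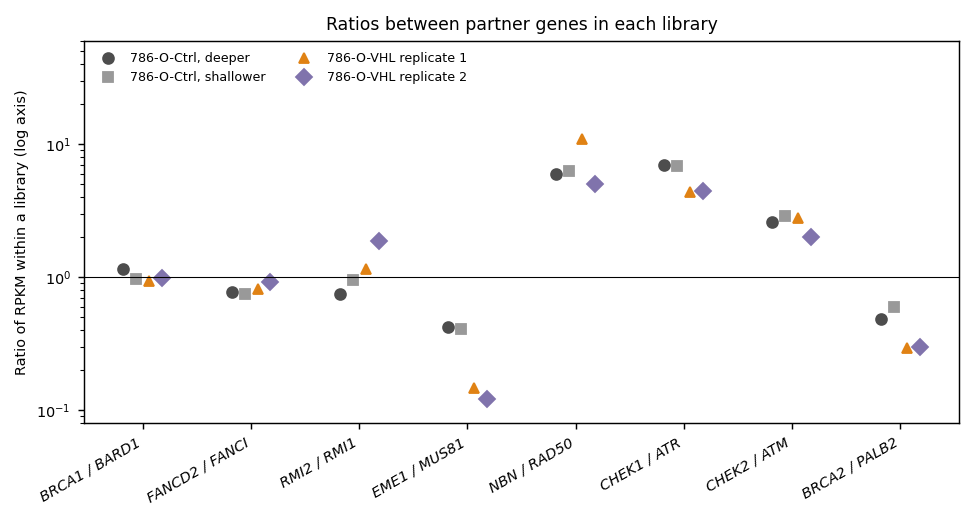
Ratio of RPKM between partner genes within each library (log axis), with 1 point per library. The 786-O-VHL points lie below the 786-O-Ctrl points for EME1 over MUS81, CHEK1 over ATR and BRCA2 over PALB2, above them for FANCD2 over FANCI and RMI2 over RMI1, and overlap or straddle them for the other 3 pairs.

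Across genes, MUS81 had the highest mean level per length in 786-O-Ctrl, 13.2 ± 0.323 RPKM (SD, n = 2), followed by RAD51AP1 at 12.3 ± 0.399 and CHEK1 at 10.4 ± 0.255. The lowest were FANCL at 0.402 ± 0.072, FANCB at 0.497 ± 0.00971 and FANCM at 0.58 ± 0.00719 RPKM. In 786-O-VHL MUS81 stood at 13.9 ± 0.27 RPKM and RAD51AP1 at 5.57 ± 0.369. Union exon lengths run long where an annotation holds many rare transcripts, which lowers the RPKM of such genes alike in every library. Annotated exons of 10 of the 40 genes (among them BRCA1, CHEK1, FANCB, FANCG, RAD50, RAD51D, RAD52 and RAD54B) overlap another gene on the same strand and those of 27 overlap one on the opposite strand, and since the strand setting of the counting is not given in the sources used here, reads of such pairs may not be told apart.

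Other genes of the same pathways were read from lists of their own. Of 30 further homologous recombination genes 20 fell and 3 rose (median −0.65). The largest falls were in DNA2 at −1.96, a resection nuclease, and TONSL at −1.75, which acts at stalled forks, and the largest rises in BABAM2 at 0.61, a subunit of the BRCA1-A complex, and RECQL5 at 0.52, a helicase that restrains recombination. Of 14 further Fanconi anemia genes tested 6 fell and 3 rose (median −0.04), with UBE2T, the ubiquitin-conjugating enzyme of the pathway, at −1.72 and CENPS, a partner of FANCM with few counts, at −1.36, and the nuclease gene ERCC4 at 0.84 and WDR48, a cofactor of the deubiquitinase USP1, at 0.55. Of 17 further checkpoint genes tested 8 fell and 2 rose (median −0.24), with CLSPN, the adaptor through which ATR activates CHEK1, at −2.52 and the phosphatase CDC25A at −1.57, against CDC25B at 0.81 and TP53BP1 at 0.19. Counts in these lists moved with single libraries. Without 786-O-VHL replicate 2 the further homologous recombination genes gave 1 rise and the further Fanconi anemia genes 3 falls, without either 786-O-Ctrl library the latter gave 4 falls and the further homologous recombination genes 2 rises, as they did without 786-O-VHL replicate 1, and the further checkpoint genes gave 1 rise without either 786-O-Ctrl library or without 786-O-VHL replicate 2.

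Other repair routes were read in the same way. The end joining genes gave 5 falls and 1 rise among 13 tested, with a median of 0.04. XRCC5, which encodes Ku80, stood at −0.92, PRKDC, the DNA-dependent kinase, at −0.81 and the polymerase POLM at 0.47. The mismatch and excision repair genes gave 11 falls and 4 rises among 25 (median −0.30), with the glycosylase UNG at −1.80, against ERCC6 at 0.58 and XPC at 0.57, both of nucleotide excision repair. Without 786-O-VHL replicate 2 this list gave 8 falls and 2 rises, and without the shallower 786-O-Ctrl library it gave 8 falls while the end joining genes gave no rise. Set side by side, the share of falls was 65% in the 40 genes described here, 66.7% in the further homologous recombination genes, 42.9% in the further Fanconi anemia genes, 47.1% in the further checkpoint genes, 38.5% in the end joining genes and 44% in the mismatch and excision repair genes, beside 31.9% of all genes, and these shares were not tested against each other.

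Genes of DNA replication and mitosis moved with these repair genes. Of 39 S phase genes tested, after removing the listed genes RAD51AP1, EXO1 and BLM from that list, 37 fell and 1 rose, with a median of −1.70, and of 52 G2M phase genes 47 fell and 1 rose, with a median of −0.77 (no rise without either 786-O-Ctrl library or without 786-O-VHL replicate 2). CCNE2, a cyclin gene of the S phase list, stood at −3.89 and GINS2, a helicase subunit, at −3.28, against POLR1B at 0.48. In 786-O-VHL replicates 1 and 2, CCNE2 rested on only 6 and 11 counts and GINS2 on 9 and 69. In the G2M list the tubulin TUBB4B stood at −1.86 and ANLN, a cytokinesis scaffold, at −1.52, against G2E3 at 0.24. The summed level of the S phase genes was 4126 and 3982 CPM in 786-O-Ctrl and 1304 and 1331 CPM in 786-O-VHL, and that of the G2M phase genes 9617 and 9512 against 5137 and 5488 CPM. No gene of either list in the table was at 0 in any library. The part of these genes in the fall of the recombination and Fanconi anemia genes was not tested.

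**Figure D4:**
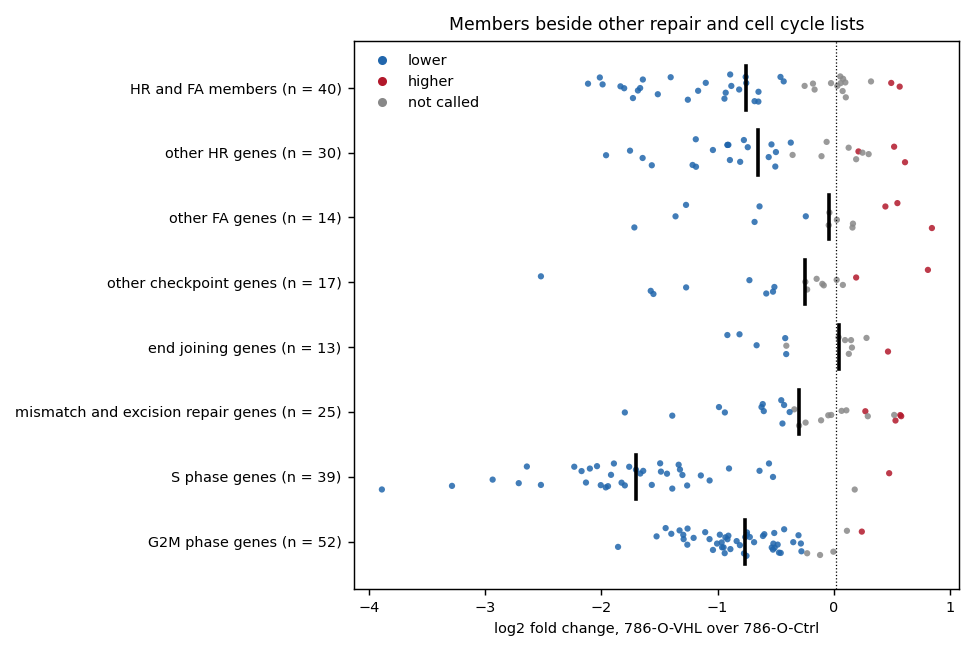
Log2 fold change, 786-O-VHL over 786-O-Ctrl, of the 40 genes and of 7 other lists, with 1 point per gene coloured by its call at an adjusted p under 0.05, a black bar at each median and a dotted line at the median of all genes tested. The bar of the 40 genes, at −0.76, lies beside those of the further homologous recombination genes at −0.65 and the G2M phase genes at −0.77, the S phase bar is lower at −1.70, and the end joining bar stands at 0.04.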

How the data were processed

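Per the labels, RNA of 786-O cells was sequenced on an Illumina NovaSeq from TruSeq libraries. The authors deposited 1 table of raw gene counts on hg19. STAR and CASAVA are named in the submitters' processing notes without a role. For counting, the tool, annotation and strand setting are each not given in the sources used here. Both 786-O-Ctrl columns carry the same replicate name, so that depth, deeper or shallower, names them. The members were listed by role and their rule uses no measured value, but they and the other lists were chosen with earlier results of these data known. Named were every member with its log2 fold change, per-library values for members past 2-fold or higher and for the most highly counted member of each role, and in other lists up to 2 genes per direction with the largest change, apart from items that are not reported here.

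Counts were filtered with filterByExpr (minimum count 10, leaving 12335 genes), scaled with TMM and tested with edgeR 4.0.16 (R 4.3.3, group as the only term, Benjamini-Hochberg over all genes tested). SEs were derived from F. A count of 0 allows up to 3 counts, 0.142 to 1.02 CPM by library. On simulated counts for this comparison edgeR recovered 90 of 100 genes changed 2-fold and 96 of 100 changed 4-fold, and made 13 false calls. Far fewer genes were changed there than the 64.5% called in the measured counts, so that the simulation does not cover that case. DESeq2 1.42.0, limma-voom (limma 3.58.1), other scalings, other filters, thinning and leaving out each library were alternatives. S and G2M phase lists came from Seurat 5.3.0. The replicate libraries differed by more than sampling noise (chi-square per degree of freedom 2.25 and 2.76). Gene positions and exon lengths came from a GENCODE annotation on GRCh37 (the build hg19), and GRCh38.p14 positions apply to RefSeq promoters alone.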

Additional observations from a re-analysis of the deposited data

How the results depend on the processing

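All 26 falls kept their direction under every alternative that tested them, and 21 kept their call under each. The number of members that fell was 23 to 26 and their median log2 fold change −0.88 to −0.62. With 1 library left in a group, its spread was taken from the other group. The number that rose, 2, was 1 with DESeq2 and after thinning, 6 with library totals alone and 1 to 3 with a library left out. Library totals alone shifted the median of all genes from 0.02 to 0.15 and their calls from 3939 lower and 4017 higher to 3097 and 5076. DESeq2 called 3147 lower and 2861 higher. Under DESeq2 the calls of RAD54B, RAD52, FANCL and SLX4 were lost, after thinning those of RAD51C, SLX4 and GEN1, and with library totals alone that of FANCL. VHL kept its call throughout.

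In the main fit the median was −0.02 for sensing and resection, −0.21 for checkpoint kinases, −0.76 for BRCA mediators and −1.37 for strand exchange. For the core complex it was −0.77, for the ID complex −1.285, for junction dissolution −0.94 and for junction resolution −0.54. Under library totals alone the median was −0.075 for checkpoint kinases, −1.24 for strand exchange, −1.15 for the ID complex, 0.093 for other Fanconi anemia, −0.11 for other checkpoint, 0.17 for end joining, −0.17 for mismatch and excision repair and −0.91 for S and G2M phase genes. After thinning it was −0.92 for BRCA mediators, −0.98 for the core complex, −1.23 for the ID complex, −0.27 for junction resolution, 0.075 for other Fanconi anemia, −0.15 for end joining and −0.16 for mismatch and excision repair genes. Strand exchange was at −1.58 with DESeq2, −1.53 with limma-voom and −1.10 with at least 10 counts in every library, a filter that put other checkpoint genes at −0.37 and end joining genes at −0.18. With each library left out in turn, medians ran from −0.80 to 0.0031 for sensing and resection, −1.67 to −1.24 for strand exchange, −1.19 to −0.71 for the core complex, −1.08 to −0.52 for junction dissolution, −0.18 to 0.063 for other Fanconi anemia, −0.36 to −0.23 for other checkpoint, −0.20 to 0.038 for end joining, −0.37 to −0.17 for mismatch and excision repair and −1.14 to −0.98 for S and G2M phase genes. The members not called that changed sign were PALB2 (−0.32 thinned), RAD51B (−0.032 with DESeq2, −0.21 thinned, −0.28 to 0.10 with a library left out), RAD50 (−0.079 with DESeq2, −0.14 thinned, −0.80 to 0.25 with a library left out), NBN (0.11 with library totals alone, 0.023 thinned, −0.052 to 0.031 with a library left out) and, with a library left out, FANCF (−0.14 to 0.43), RMI2 (−0.056 to 0.11) and ATM (−0.16 to 0.15). The E2F motifs stood in 1 promoter and the CHR motif in 1 within 150 bases before the start, and the E2F motifs in 7 with 50 bases after the start added, a window chosen after the data were seen. The cause of these shifts was not tested. No paired analysis was possible because both 786-O-Ctrl columns carry the same replicate name.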
